A study of Camelina sativa with 41 samples.

Results

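Csa04g050690 and Csa11g037200 are 2 of the 22 transcription factor genes of Camelina sativa whose DNA binding was assayed in this series, and 2 of the 89418 genes in its table of seed counts. They were chosen by their measured seed levels, which were high and nearly flat with age. Their levels, ranks and changes with age are therefore a description, and no test is made on them. The binding data played no part in the choice. The files and the reference table used here give neither gene a name or a protein family, so no role can be stated for either, and both go by their identifiers.

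A transcription factor binds short DNA sequences and alters how often nearby genes are copied into RNA. Maturing oilseed embryos pass from cell division to the filling of storage oil and protein, and factors act at this switch in mustard relatives such as Arabidopsis. A factor whose messenger RNA is already present before filling differs in this respect from one whose messenger RNA appears with it. The title of the series gives lipid metabolism and its regulation as the subject.

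Seeds of untreated wild-type plants of the cultivar Suneson were harvested 5, 8 or 11 days past flowering (DPA, days post-anthesis). Each age had 3 biological replicates, each made from pooled seeds. RNA was extracted from fresh seed, although the growth text speaks of seedpods, and the tissue could not be checked against marker genes because the gene identifiers carry no names. Binding was measured by DNA affinity purification sequencing (DAP-seq), in which a factor fused to a Halo tag and made outside the plant captures fragments of genomic DNA. The DNA came from pooled leaves of mature plants and was amplified, which removes its methylation, so the binding data show neither seed chromatin nor methylated DNA. A single peak list was analysed here for each of 20 factors, Csa04g050690 and Csa11g037200 among them, so that no spread between replicate lists can be given.

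Library totals were 38268473 to 46863553 counts in 8 of the 9 seed libraries and 15659011 in 5 DPA replicate 1. That library rests on its first sequencing run alone, because its column for the second run was identical to that of 5 DPA replicate 2. Replicates of an age were compared by their first runs alone, over genes above a minimum count. Chi-square over its degrees of freedom ran from 1.96 to 21.2, with the largest values those of 11 DPA replicate 1. The 10 most abundant genes took 6.71% of the counts of 11 DPA replicate 1 and 3.08% to 4.82% of those of the other libraries.

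Csa04g050690 was moderately abundant and slightly lower at 5 DPA than later. Its level in CPM (counts scaled to a library total of 1000000) was 20.0, 18.4 and 18.5 in 5 DPA replicates 1, 2 and 3. At 8 DPA it was 22.8, 22.2 and 22.6 CPM. At 11 DPA it was 22.9, 22.0 and 25.1 CPM. All 6 later libraries thus lay above all 3 libraries of 5 DPA, while the ranges of 8 and 11 DPA overlapped. Of the 63017 genes that passed the count filter, 29.5% had every 8 DPA library above every 5 DPA library, 30.2% every 11 DPA library above every 5 DPA library, and 23.6% every 11 DPA library above every 8 DPA library. Its mean level was 19.0 CPM ± 0.886 for the youngest seeds, 22.5 CPM ± 0.291 in the middle group and 23.3 CPM ± 1.62 for the oldest (SD, n = 3 each). In tissue RNA such as this, a change in the share of cells that express a gene and a change in its RNA per cell cannot be told apart.

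Csa11g037200 was the most abundant of the 22 factor genes by CPM at each of 5, 8 and 11 DPA. It had 63.6, 57.6 and 58.9 CPM in 5 DPA replicates 1, 2 and 3. At 8 DPA it had 68.6, 71.2 and 74.7 CPM. At 11 DPA it had 61.2, 74.1 and 78.2 CPM. The 8 DPA libraries all lay above those of 5 DPA, but 11 DPA replicate 1 fell inside the 5 DPA range. Means were 60.1 CPM ± 3.13, 71.5 CPM ± 3.03 and 71.1 CPM ± 8.87 at the 3 ages in turn (SD, n = 3 each).

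**Figure D1:**
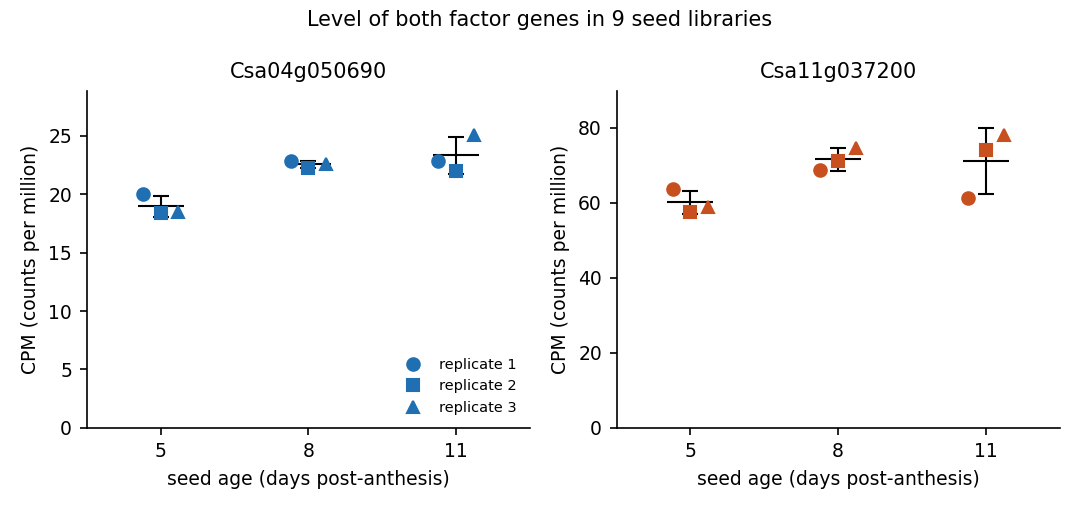
CPM (vertical axes, starting at 0) of Csa04g050690 and Csa11g037200 in each seed library by age in days post-anthesis; each point is a library, its shape the replicate number, and the bars give the mean ± SD of 3 libraries. The 5 DPA points lie below the 8 DPA points for both genes, and 11 DPA replicate 1 of Csa11g037200 (61.2 CPM) lies apart from the other 11 DPA libraries.

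Some of this spread was no larger than counting error and some was. The coefficient of variation (CV, SD over mean) of Csa04g050690 was 4.67% at 5 DPA and 1.29% at 8 DPA, against 4.40% and 3.32% from counting alone, and 6.95% at 11 DPA against 3.10%. For Csa11g037200, with its higher counts, the CV was 5.22%, 4.23% and 12.5% at 5, 8 and 11 DPA, against 2.47%, 1.86% and 1.78% from counting. The CV of Csa11g037200 thus exceeded that of counting at every age, and most at 11 DPA.

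The sequencing runs of a library gave similar values for Csa11g037200 and less similar ones for Csa04g050690. In the 8 libraries with 2 usable runs, the CPM of Csa11g037200 in the second run differed from the first by -5.13% to 4.53%, lower in 4 and higher in 4. That of Csa04g050690 differed by -18.7% to 7.46% and was lower in the second run in 6 of 8 libraries. The run CV was 6.75% for Csa04g050690 and 2.41% for Csa11g037200, against 4.79% and 2.72% from counting. Since 5 DPA replicate 1 has the first run only, its value of 20.0 CPM for Csa04g050690, the highest of its age, is not averaged over runs as the others are.

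Both genes kept nearly the same proportion to each other, a comparison that does not depend on how libraries are scaled. Since both were picked for flat levels over these libraries, a nearly constant proportion follows in part from that choice. Csa11g037200 had 3.18, 3.13 and 3.19 counts per count of Csa04g050690 in 5 DPA replicates 1, 2 and 3. The ratio was 3.01, 3.20 and 3.31 at 8 DPA and 2.67, 3.37 and 3.11 at 11 DPA. The mean ratio was 3.17 ± 0.0317, 3.17 ± 0.152 and 3.05 ± 0.354 with advancing age (SD, n = 3 each), and the ranges of the ages overlapped. The library with the lowest ratio, 2.67, was again 11 DPA replicate 1.

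Per base of gene length the order of the pair turned around. The deposited length is 956 bases for Csa04g050690, on the minus strand, and 5212 bases for Csa11g037200, on the plus strand. Neither the table nor the labels say whether this length includes introns. Per 1000 bases, Csa04g050690 stood at 22.6 RPKM ± 2.32 and Csa11g037200 at 13.0 RPKM ± 1.44 (SD over 9 libraries, all ages). The libraries ranged from 19.3 to 26.3 RPKM for the former and from 11.1 to 15.0 RPKM for the latter, without overlap.

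Against all genes, both levels were in the upper part of the table. Of the 81420 genes with a count in any library, 87.5% had a lower mean CPM than Csa04g050690 and 97.2% a lower one than Csa11g037200. A higher mean CPM was found for 10207 genes in the first case and 2315 in the second. By RPKM the percentiles were 95.6 for Csa04g050690 and 91.7 for Csa11g037200. With advancing age the percentile by CPM went from 85.9 through 87.9 to 88.8 for Csa04g050690 and from 96.6 through 97.3 to 97.4 for Csa11g037200. These places describe genes that were picked for high levels.

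The word steady holds only loosely. In edgeR's fit over the filtered genes, the log2 difference of Csa04g050690 was 0.21 (SE 0.07) from 5 to 8 DPA, 0.12 (SE 0.07) from 8 to 11 DPA and 0.33 (SE 0.07) from 5 to 11 DPA. That of Csa11g037200 was 0.21 (SE 0.09), 0.06 (SE 0.09) and 0.28 (SE 0.09) in the same order. Over the whole span these are 1.26-fold and 1.21-fold higher levels at 11 DPA. The median log2 difference of all genes in the fit was 0.00255 over that span, and its median size without sign was 0.54. A smaller size than that of Csa04g050690 was found for 35.4% of genes and than that of Csa11g037200 for 30.0%, while 32.2% of genes differed by 2-fold or more.

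Scaling mattered for changes this small. With library totals, 11 DPA had 0.995 times the 8 DPA mean of Csa11g037200, whereas TMM scaling and DESeq2's size factors gave 1.05 times, so the direction of this step is not settled. With those 2 scalings the ranges of 5 and 11 DPA no longer overlapped for Csa11g037200, and those of 8 and 11 DPA no longer overlapped for Csa04g050690. The step from 5 to 8 DPA showed no overlap for either gene under any of the 3 scalings. With library totals, 29.5% of the tested genes also had every 8 DPA library above every 5 DPA library. Such shares were not counted for the other scalings, so these gaps are not shown to be particular to the pair. The log2 difference of Csa11g037200 from 8 to 11 DPA, 0.06 (SE 0.09), moved by less than its SE when any single library was left out. It then ran from 0.01 to 0.14. It was 0.14 without 11 DPA replicate 1, 0.03 without 8 DPA replicate 1, 0.03 without 11 DPA replicate 2 and 0.01 without 11 DPA replicate 3.

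Seen beside other genes, the pair was flatter than most but not exceptional. The highest age mean was 1.23 times the lowest for Csa04g050690 and 1.19 times for Csa11g037200, where the median of the tested genes was 1.58 times and 36.8% of them differed by 2-fold or more. A lower ratio was found for 21.4% of the tested genes in the case of Csa04g050690 and for 16.6% in that of Csa11g037200. Among genes of like level (a mean CPM within 1.5 times of the gene's own), 3159 of 9814 (32.2%) were flatter than Csa04g050690 and 568 of 2855 (19.9%) flatter than Csa11g037200. These shares depended on the processing. For Csa04g050690 the share was 39.2% with TMM scaling and 45.2% with the first run alone. For Csa11g037200 it was 25.4% with TMM scaling, 16.8% with the first run alone and 32.8% without 11 DPA replicate 1. By the CV over all 9 libraries, 10.3% and 11.1%, the shares of genes of like level that varied less were 24.0% and 24.7%.

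**Figure D2:**
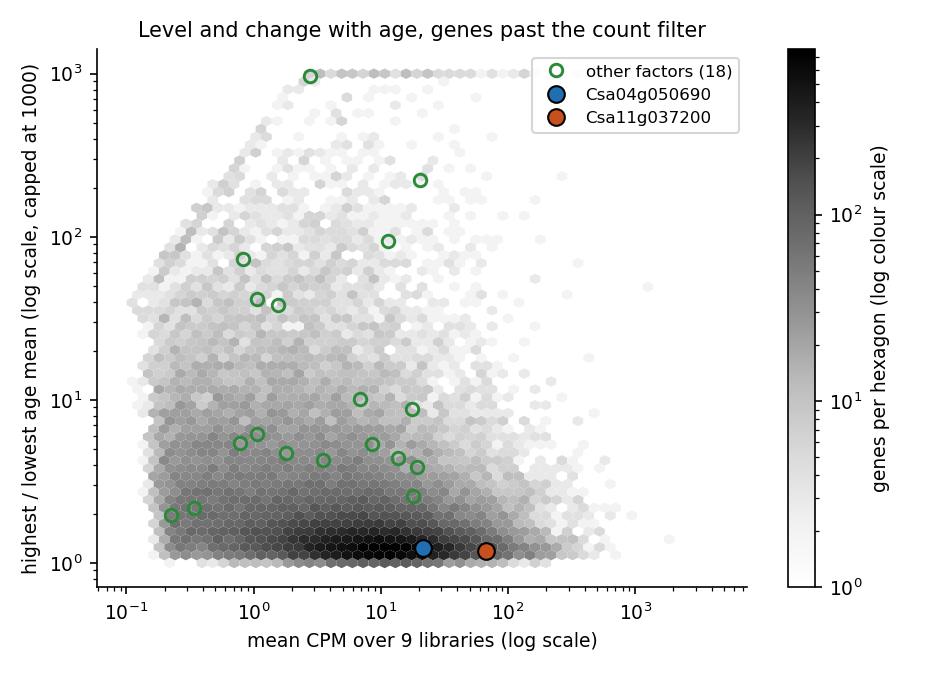
Mean CPM over 9 libraries against the ratio of the highest to the lowest age mean, both on log axes, for genes that passed the count filter (grey hexagons, darker for more genes; 699 genes with no count at some age are not drawn). Csa04g050690 and Csa11g037200 (filled points, ratios 1.23 and 1.19) lie in the dense band of little-changing genes, and the other 18 tested factors (open circles) lie above them.

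Within the assayed factors their flatness set them at the edge of the group, as the choice requires. Of the 20 factor genes that could be tested, Csa11g037200 had the lowest ratio between age means and Csa04g050690 the next. The factors next in order were Csa13g019570 with a ratio of 1.98, Csa19g005080 with 2.18 and Csa05g079950 with 2.56. The first 2 of these were scarce, with mean levels of 0.222 and 0.339 CPM, whereas Csa05g079950 had 17.8 CPM, near the 21.6 CPM of Csa04g050690 and below the 67.6 CPM of Csa11g037200.

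By CPM, which does not correct for gene length, the standing of Csa04g050690 among the factors was lower at the last age than at the first. It was in place 2 of 22 at 5 DPA and in place 7 at 11 DPA. Csa11g015700, for instance, had 8.35 CPM at the first of these ages and 32.5 CPM at the last. Csa11g037200 was in place 1 at both ages. Places per length were not taken age by age. Csa04g050690 itself had 19.8 RPKM at 5 DPA and 24.4 RPKM at 11 DPA. Per length and over all libraries, Csa04g050690 was in place 1 and Csa11g037200 in place 3. Csa05g079950 stood between them at 13.2 RPKM ± 7.62 (SD over 9 libraries), with libraries from 7.28 to 31.1 RPKM that overlapped both. Csa11g015700, the next below, had 6.77 RPKM ± 3.92, and its highest library (13.4 RPKM) reached into the range of Csa11g037200 and not into that of Csa04g050690.

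**Figure D3:**
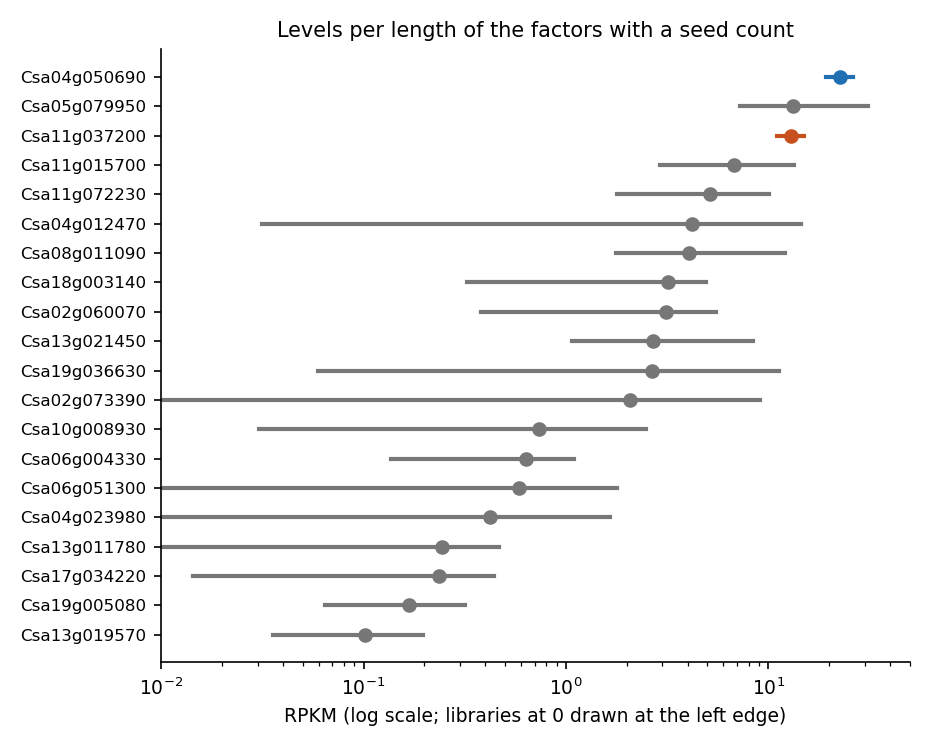
Level per length (RPKM, log axis) of the 20 factor genes with a seed count; points are means over 9 libraries and lines run from the lowest to the highest library, over all ages, starting at the left edge where the lowest library is at 0. The lines of Csa04g050690 (19.3 to 26.3 RPKM) and Csa11g037200 (11.1 to 15.0 RPKM) are short, whereas those of other factors span up to several powers of 10.

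Some genes followed the pair closely over the 9 libraries. Likeness was measured as the root mean square difference of log2(CPM + 0.5), centred on each gene's mean, over the 9 libraries, among genes with at least 10 CPM on average. Closest to Csa04g050690 were Csa14g020910 (difference 0.0284, Pearson's r 0.98) and Csa11g034320 (0.0313, r 0.98). Closest to Csa11g037200 were Csa09g014660 (0.0251, r 0.99) and Csa07g065270 (0.0348, r 0.98). Csa14g020910 went from 25.5 CPM at 5 DPA through 30.8 CPM to 31.1 CPM, and Csa09g014660 from 24.0 through 28.8 to 29.2 CPM. These genes were picked for their likeness to the pair, so their small early step follows from that choice. The values are descriptions over 9 libraries of 3 ages that share their scaling. Between both factor genes the difference was 0.0903 (r 0.81), and 568 of 22275 genes lay closer to Csa04g050690 than Csa11g037200 did. For scale, 33.7% of the 22275 genes differed by less than 0.2 from Csa04g050690, and 33.4% from Csa11g037200. That limit is wide for genes with a CV of 10.3% and 11.1%, so a gene without any change with age can lie within it. The limit thus reflects flatness more than shape. A Pearson's r over 0.9 was found for 821 of the 22275 genes with Csa04g050690 and for 246 with Csa11g037200.

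The binding data of both factors were sparse. The list of Csa11g037200 held 45 peaks on 19 of the 20 chromosomes, and that of Csa04g050690 held 278 peaks on all 20. They were the lists in places 2 and 4 from the shortest of 20 lists, which together held 717159 peaks. Every peak of both lists was 201 bp wide. Sequencing depth is unknown for the peak lists, so their lengths cannot be set against it.

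Most peaks of both lists stood close to the authors' significance limit, which lies at a −log10 q of 2. In the list of Csa11g037200 the median −log10 q was 2.2, and 37 of 45 peaks (82.2%) were below 2.5. In that of Csa04g050690 the median was 2.35, and 170 of 278 (61.2%) were below 2.5. A −log10 q of at least 3 was reached by 4 peaks of Csa11g037200 and 42 of Csa04g050690. Each peak also carries the authors' own signal, of unstated unit, which ran from 21.0 to 60.0 with a median of 24.0 for Csa11g037200 and from 27.0 to 103.4 with a median of 30.0 for Csa04g050690.

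The same 4 positions led both lists. Coordinates are those of the authors' files, whose build the sources used here do not give, and no sequence or gene annotation of that build was at hand to say what lies there. In the list of Csa11g037200 the 4 peaks with the highest −log10 q were chr16:12920276-12920476 (7.06), chr5:25548098-25548298 (6.09), chr7:15970532-15970732 (4.75) and chr19:5339272-5339472 (4.12). In the list of Csa04g050690 the leading 4 were chr5:25548066-25548266 (16.7), chr16:12920287-12920487 (13.5), chr7:15970528-15970728 (11.7) and chr19:5339325-5339525 (11.6). Summits of the matching peaks lay 11, 32, 4 and 53 bp apart on chromosomes 16, 5, 7 and 19. These 4 include every peak of Csa11g037200 with a −log10 q of at least 3, and the next peak of Csa04g050690 had 6.25.

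Signals at these positions were higher in the longer list. On chromosome 16 the signal was 60.0 for Csa11g037200 and 98.0 for Csa04g050690. On chromosome 5 it was 49.2 and 103.4, on chromosome 7 it was 38.7 and 71.5, and on chromosome 19 it was 36.0 and 71.0. Signals were not normalised between lists in any stated way, so the difference in size between lists is not a comparison of binding.

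These positions were also found for other factors. Counted from the summits of Csa11g037200, each of the 4 lay within 100 bp of a summit in 5 further lists, always including those of Csa11g015700, Csa19g005080, Csa05g079950 and Csa11g072230. Counted from the summit of Csa04g050690 on chromosome 19, 53 bp away, Csa05g079950 was not among them. Among the 211 peaks of Csa11g015700 they were in places 1 (chromosome 5), 2 (chromosome 16), 4 (chromosome 7) and 5 (chromosome 19) by −log10 q, which was 45.8, 33.1, 28.1 and 26.7. They were the 4 leading peaks of Csa19g005080, whose list has 13. In the longest list, that of Csa02g073390 with 129638 peaks, the positions on chromosomes 16, 5 and 7 were present but weak. Their −log10 q was 3.57, 4.59 and 2.92, where the median of that list was 5.83. Of its peaks, 24.6%, 37.2% and 15.0% were below them in −log10 q. A control with the Halo tag alone is named in the labels and was not analysed here, so whether it captures these positions was not tested.

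**Figure D4:**
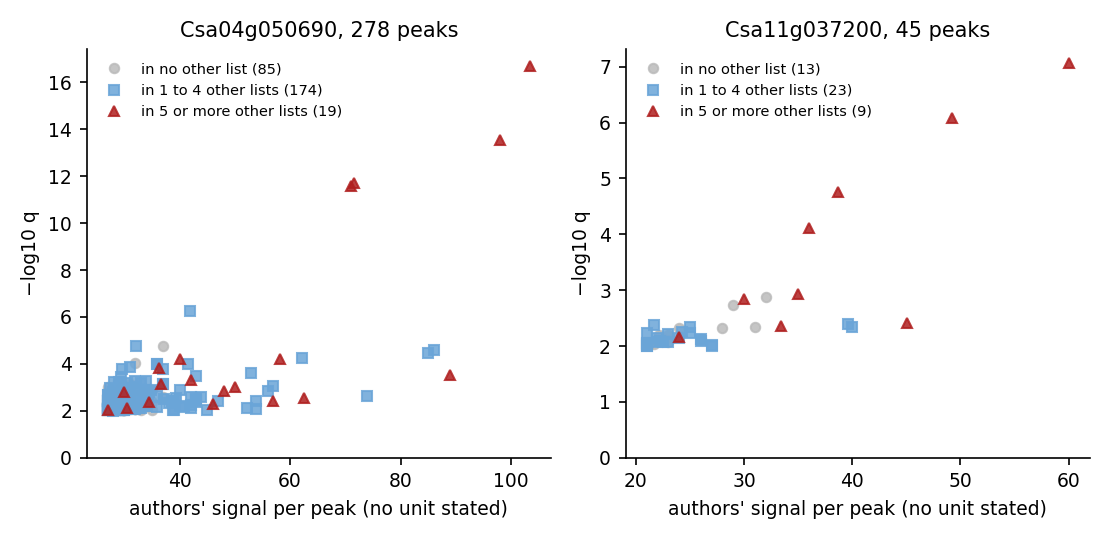
Authors' signal (horizontal, no unit stated) against −log10 q (vertical) for every peak of Csa04g050690 (278) and Csa11g037200 (45), by how many of the other 19 lists have a summit within 100 bp. The 4 peaks at the top of each plot, from 11.6 to 16.7 and from 4.12 to 7.06 in −log10 q, are in 5 or more other lists, and most remaining peaks crowd just above 2.

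Besides the leading 4, another 4 positions were common to both lists. In all, 8 summits lay within 100 bp of each other, 17.8% of the list of Csa11g037200 and 2.88% of that of Csa04g050690, at distances of 2 to 53 bp. The remaining shared peaks of Csa11g037200 were chr18:7288891-7289091, chr11:23987677-23987877, chr2:11848371-11848571 and chr4:14624878-14625078, with −log10 q of 2.94, 2.84, 2.39 and 2.16. None of the 8 belonged to this pair alone, since each had 3 to 9 further lists with a summit within 100 bp of that of Csa11g037200 or Csa04g050690. The position on chromosome 11 was the most widely shared, in 9. Among the 37 peaks of Csa11g037200 without a partner in the list of Csa04g050690 the highest −log10 q was 2.87. Among the 270 unpartnered peaks of Csa04g050690 it was 6.25, and 35 of these reached 3.

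A majority of summits in both lists coincided with some other list. Within 100 bp of a summit of at least 1 of the other 19 lists lay 32 of 45 summits of Csa11g037200 (71.1%, 95% Wilson interval 56.6% to 82.3%) and 193 of 278 of Csa04g050690 (69.4%, 63.8% to 74.5%). Intervals cover counting error only. For scale, 18.6% of the bases of the 20 chromosomes, up to the last peak of each, lay within 100 bp of a summit of the other lists, in both cases. Among lists of similar length the share was 75.4% for Csa11g015700, 69.2% for Csa19g005080 and 36.9% for Csa05g079950 (620 peaks). No test of these shares was made, since each of the 20 factors has 1 list here.

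Widely shared peaks were a minority of both lists, though a larger share than in most other lists. In 5 or more other lists stood 9 peaks of Csa11g037200 (20.0%) and 19 of Csa04g050690 (6.83%), and the most was 10 lists for both. That share was 38.5% for Csa19g005080, 9.95% for Csa11g015700 and 3.06% for Csa05g079950. It was at most 2.75% in every longer list. The median −log10 q was 2.94 for those 9 and 3.15 for those 19, against 2.2 and 2.21 for the 13 and 85 peaks in no other list. Of the 11 peaks of Csa11g037200 with the highest −log10 q, 7 were in 5 or more other lists, and of the remaining 34 only 2. Of the 69 highest of Csa04g050690 there were 13, and of the remaining 209 there were 6.

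Counted list by list, the longest list shared the most summits with each factor. That of Csa02g073390 held 63 summits of Csa04g050690 (22.7%) and 11 of Csa11g037200 (24.4%), which is 0.0486% and 0.00849% of its own peaks. Next for Csa04g050690 came Csa06g051300 with 46 (16.5%) and Csa06g004330 with 40 (14.4%). Next for Csa11g037200 came the short list of Csa11g015700 with 10 of 45 (22.2%), or 4.74% of that list, followed by Csa04g050690 itself with 8. Csa11g015700 also shared 23 summits with Csa04g050690, 8.27% of the list of Csa04g050690 and 10.9% of its own. Csa08g011090, whose list has 5259 peaks, held 4 summits of Csa04g050690 (1.44%), the fewest, and 1 of Csa11g037200, as did Csa04g023980 and Csa13g021450. A longer list has more summits near which others can fall, and these counts were not adjusted for length. As a share of the other list, the largest was that of Csa19g005080. Of its 13 peaks, 8 (61.5%) were shared with Csa04g050690 and 4 (30.8%) with Csa11g037200.

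**Figure D5:**
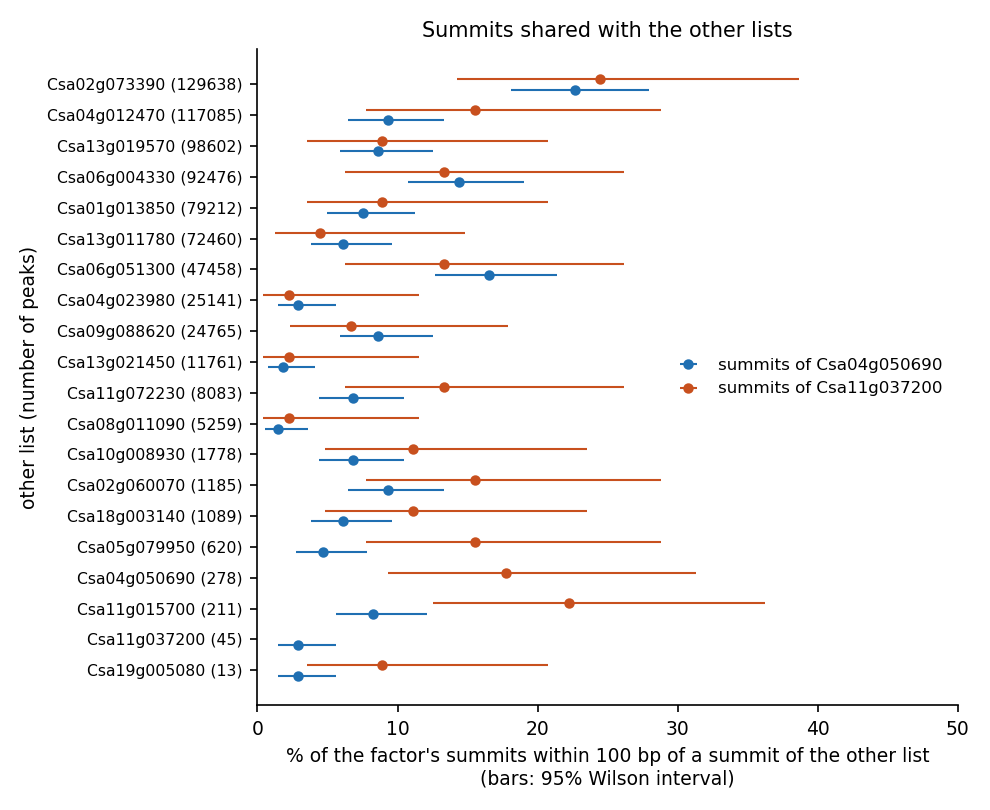
Percentage of the summits of Csa04g050690 and of Csa11g037200 (horizontal axis) with a summit of each other list within 100 bp; other lists are ordered by length, longest at the top, and bars are 95% Wilson intervals that cover counting error only. The longest list has the largest share for both factors (22.7% and 24.4%), and the short list of Csa11g015700 has the next largest for Csa11g037200 (22.2%).

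Peaks were spread over the chromosomes and seldom lay together. Csa04g050690 had from 6 peaks (chromosome 8) to 22 peaks (chromosome 7) per chromosome, 2.16% and 7.91% of its list, where the lists of the other 18 factors together had 4.58% and 5.52%. Csa11g037200 had no peak on chromosome 8 and at most 5, on chromosome 12. Neighbouring summits of the same list came within 1000 bp of each other 4 times for Csa04g050690, at the least 243 bp, and never for Csa11g037200, whose closest summits were 223103 bp apart.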

How the data were processed

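The authors deposited whole-number counts per gene and sequencing run, with a gene length in bases. The authors' peak lists, named as events of the GEM caller per the file names, give a score (at most 1000), −log10 of p and q, and a signal of unstated unit per peak. Tools named in the submitters' processing notes, with no role, are HISAT2 2.0.4, Bowtie2 2.3.4.1, Trimmomatic, FastQC and bcl2fastq 2.20.0. The sources used here do not give the counter, its use of strand, the build or the pooling of DAP-seq duplicates. The genome has 3 similar subgenomes, so counts of near-identical copies are uncertain.

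Runs were summed per replicate, leaving out the second column of 5 DPA replicate 1. CPM divide by library totals and RPKM also by length in units of 1000 bases. Changes came from edgeR 4.0.16 under R 4.3.3 (glmQLFit on all ages together, with filterByExpr and TMM), with SE as the change over the root of F. The fit was tested on simulated data. Summits within 100 bp were taken as shared. Scores only ranked peaks within a list. Alternatives were other scalings, DESeq2 1.42.0, no filter, the first run alone, runs as deposited, only the 2 ages compared, a replicate block, each replicate left out, other distances and stricter peak thresholds. Named genes were the other 20 factors next to the pair in level, flatness or shared summits, and the 2 most alike genes of each. Genes, lists and rules were chosen with earlier results of these data known. None of the identifiers matched the 98741 genes of the reference table. No sequence is shown.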

Additional observations from a re-analysis of the deposited data

How the results depend on the processing

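The log2 changes of both genes between ages stayed above 0 in all 16 alternative fits of each comparison, none of which scales by library totals alone. With library totals, the 11 DPA mean of Csa11g037200 was 0.995 times its 8 DPA mean. With the first run alone the change of Csa04g050690 from 5 to 11 DPA was 0.42. With the replicate number as a block it was 0.33, and that of Csa11g037200 was 0.27. Same-numbered libraries of different ages had correlations of -0.0693 to 0.185 in their deviations from the age means, and 1 of 9 pairs exceeded 0.1. Differently numbered libraries had -0.176 to 0.199. No pairing by number was thus seen, but a weak one could be missed, so the correlations do not settle whether samples were paired. Leaving out a library gave 16.1% to 32.8% of genes of like level flatter than Csa11g037200. For Csa04g050690 that range was 23.4% to 38.1%. At a −log10 q of at least 3 the lists held 42 and 4 peaks (Csa04g050690 and Csa11g037200), and the higher-scoring 50% held 139 and 23 by construction. The share of summits in another list (Csa04g050690, then Csa11g037200) was 51.8% and 62.2% at 50 bp, 85.6% and 91.1% at 200 bp, and 59.7% and 56.5% with the higher-scoring 50% of each list. Since 69.1% and 55.6% of their peaks are at the highest score, 1000, that choice was made by signal among ties, and it is no check of stability. By Pearson's r in place of the root mean square difference, 1 of the 2 most alike genes of each remained. The CV from counting alone was 3.65% for Csa04g050690 and 2.06% for Csa11g037200 over the 9 libraries, and the depth behind the peak lists is unknown.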
